A study of Mus musculus with 6 samples.

Results

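The BCL2 family, the set of proteins that governs the mitochondrial route of apoptosis, was followed through bulk RNA-Seq of adult mouse muscle by 10 of its genes, taken by symbol from the 24421 genes in the count tables. They were Bcl2, Bcl2l1 and Mcl1 among the survival (anti-apoptotic) genes, Bax and Bak1 as effectors, Bbc3, Bid, Pmaip1 and Bcl2l11 as BH3-only genes, and Bnip3 as an atypical BH3-only gene. The rule takes them by name and uses no measured value, but the list was drawn up with earlier results of these data known. The study asked what loss of Net39, a nuclear envelope protein of striated muscle, does to adult skeletal muscle. Gastrocnemius/plantaris (GP) muscle came from 3 mice labelled Ctrl and 3 labelled cKO, with 1 library per mouse. The labels give the former as Net39 fl/fl without Cre (Cre-) and the latter as HSACreERT2;Net39 fl/fl, all on a B6C3F1 background, at 5 months of age and 3 months after tamoxifen. Both groups were thus floxed, and the methods describe tamoxifen injection of male mice for both. The HSA promoter drives the CreERT2 recombinase in muscle fibres and not in satellite cells, so cells of the muscle other than fibres keep Net39 by design, and their RNA is part of each library.

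Survival proteins of this family sit on the outer mitochondrial membrane and bind the effectors BAX and BAK. BH3-only proteins answer damage or loss of growth signals by occupying the survival proteins or by activating the effectors directly, after which BAX and BAK form pores, cytochrome c leaves the mitochondrion and caspases are activated. In skeletal muscle, a tissue of long-lived fibres with many nuclei, the family is also known for work away from cell death, such as the removal of mitochondria.

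The targeted gene went against the labels. Net39, listed as Ppapdc3, had 310, 321 and 217 counts in labelled Ctrl libraries and 5365, 4340 and 6080 in labelled cKO libraries, which is 7.20 ± 1.10 (SD, n = 3) against 134 ± 19.7 CPM (counts-per-million). The log2 fold change, labelled cKO over labelled Ctrl, was 4.22 (SE 0.17; adjusted p = 0.000161, edgeR's quasi-likelihood test with Benjamini-Hochberg adjustment). Groups are given here as labelled, every direction below refers to the label, and each would turn around if the labels were exchanged. Totals ran from 33860001 to 48839910 counts per library. The 6 markers of muscle fibres were abundant in every library, with a summed level of 72067 to 97270 CPM in labelled Ctrl libraries and 130603 to 176265 CPM in labelled cKO libraries.

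Of the 10 genes, 9 had enough counts to be tested and 6 passed at an adjusted p under 0.05, where 24.4% of all 14180 genes tested passed. Bbc3, Bid, Bax and Bnip3 were higher in labelled Ctrl libraries, and Bcl2 and Bak1 were higher in labelled cKO libraries. In all genes tested, 11.8% passed with the higher level in labelled Ctrl and 12.6% with the higher level in labelled cKO. With the study's added limit of a fold change over 2, Bbc3 and Bid passed, both higher in labelled Ctrl, and 0 of the 9 higher in labelled cKO. Of all genes tested, 6.05% passed that limit, 3.92% with the higher level in labelled Ctrl and 2.13% with the higher level in labelled cKO. The libraries of the labelled groups did not overlap for 8 of the 9 genes tested, against 43.9% of all genes tested, with 6 higher in labelled Ctrl (21.9% of all) and 2 higher in labelled cKO (22.0% of all). At an unadjusted p under 0.05 there were 9 of the 9 (38.8% of all genes tested), and DESeq2 called 8 (28.0% of all). The median log2 fold change of the 9 was -0.43 and that of all genes tested was -0.02. In bulk tissue, fewer cells of a type and less RNA per cell cannot be told apart, and this holds for each gene below.

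**Figure D1:**
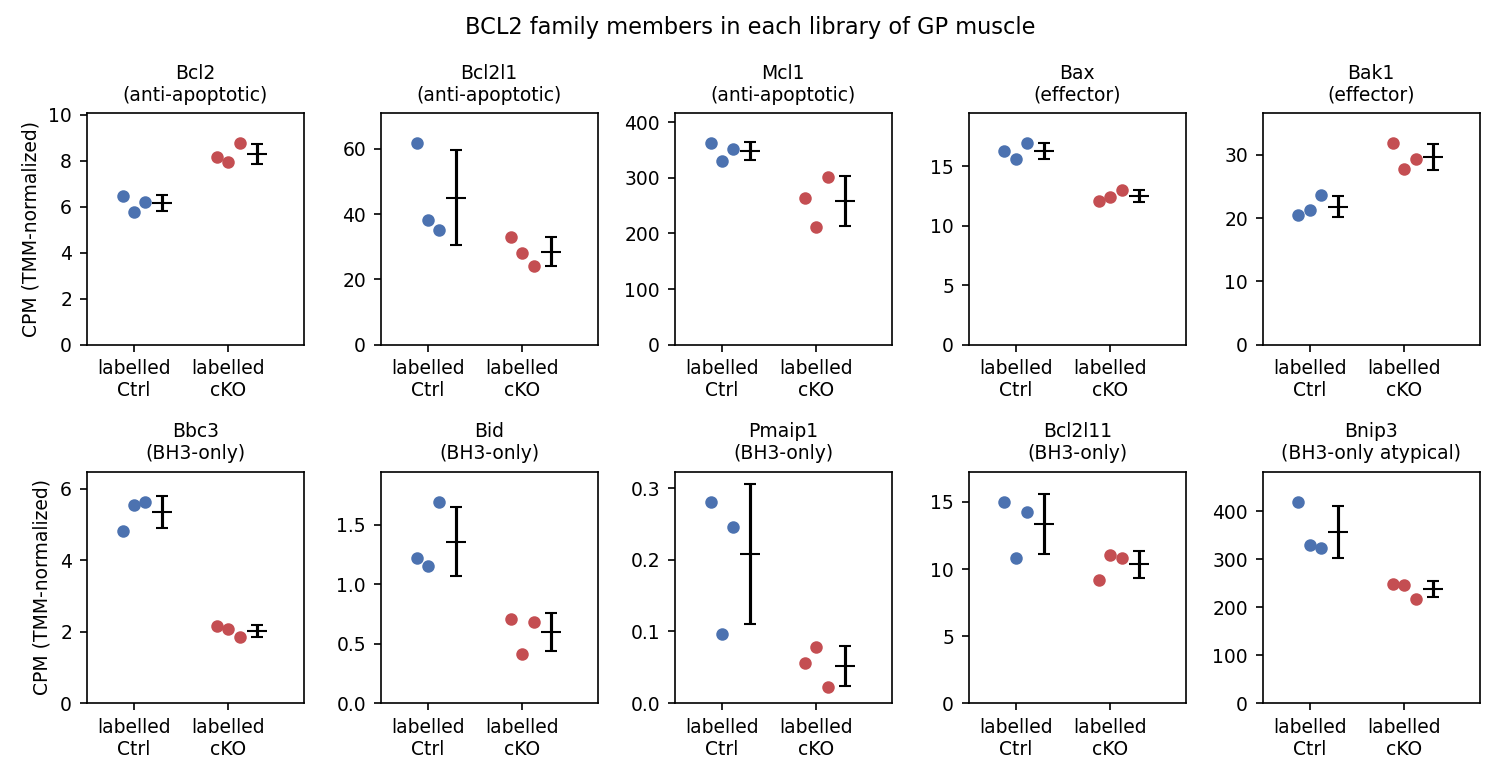
Each panel plots 1 gene, with the CPM (after TMM scaling) of every library on an axis from 0, libraries labelled Ctrl on the left in blue and those labelled cKO on the right in red. Bars are the mean ± SD of 3 mice. Bbc3 lies between 4.83 and 5.63 CPM on the left and between 1.84 and 2.14 CPM on the right, while Bcl2 and Bak1 are higher on the right and Bcl2l11 overlaps.

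Bbc3, which encodes PUMA, a BH3-only protein that binds every survival member and is a textbook target of p53, differed most in log2 fold change among the 9 genes. It had 189, 230 and 206 counts in labelled Ctrl libraries and 76, 80 and 81 in labelled cKO libraries, or 4.83, 5.55 and 5.63 CPM against 2.14, 2.08 and 1.84 CPM. Every library labelled Ctrl was thus well above every one labelled cKO, and within a group the mice were close together. The means were 5.34 ± 0.444 and 2.02 ± 0.160 CPM (SD, n = 3), a level 2.64-fold higher in labelled Ctrl. The log2 fold change was -1.40 (SE 0.15, 95% interval -1.74 to -1.06; adjusted p = 0.00228, edgeR). An exact two-sided permutation test of the 6 CPM values gave p = 0.1, the smallest that 3 against 3 libraries allow. Bbc3 passed the test under each of 13 other settings, including without any 1 library, with log2 fold changes from -1.65 to -1.35.

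Bid encodes a BH3-only protein that caspase-8 cleaves, so that death receptor signals reach the mitochondrion. It had 48, 48 and 62 counts in labelled Ctrl libraries and 25, 16 and 30 in labelled cKO libraries, or 1.23, 1.16 and 1.70 CPM against 0.706, 0.415 and 0.682 CPM. The groups did not overlap, but the counts are few. The level was 2.25-fold higher in labelled Ctrl (1.36 ± 0.293 against 0.601 ± 0.161 CPM, SD, n = 3), with a log2 fold change of -1.17 (SE 0.29, 95% interval -1.86 to -0.49; adjusted p = 0.0279, edgeR). This call was lost without Ctrl 1, Ctrl 2, Ctrl 3, cKO 1 or cKO 3, with adjusted p-values of 0.0695, 0.0571, 0.0661, 0.0576 and 0.0667 in that order (edgeR), over a range of 0.0107 to 0.0695 in all alternatives. Bid shares 628 of its 3550 exon bases with Bcl2l13 on the opposite strand, whose counts of 4621 to 5622 per library far exceed those of Bid and whose log2 fold change was -0.01 (SE 0.08). Whether strand was used in counting is not given in the sources used here, so reads of the shared bases cannot be assigned with certainty.

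Bbc3 lies on the plus strand of chromosome 7 (chr7:16308393-16318205, GRCm38, GENCODE M21) and Bid on the minus strand of chromosome 6 (chr6:120891930-120916853). The bases upstream of their transcription starts are shown because these genes, with Bax and Bnip3 below, were higher in labelled Ctrl libraries. They are RefSeq's windows on GRCm38.p6, 250 bases before a start, written 5′ to 3′ on the strand of the gene. Both windows of Bbc3 lie inside the GENCODE span above, which begins at an earlier annotated start, and the last bases of the Bid window lie inside the span of Bid. Capitals mark matches to sites of factors known to act on this family, searched on both strands: GTAAACA for FOXO factors, ACGTG as the core of the hypoxia response element, TTTGGCGC and TTTCGCGC for E2F, a p53 half-site and an NF-kappaB site.
Bbc3, start 1, chr7:16309333-16309582, plus strand: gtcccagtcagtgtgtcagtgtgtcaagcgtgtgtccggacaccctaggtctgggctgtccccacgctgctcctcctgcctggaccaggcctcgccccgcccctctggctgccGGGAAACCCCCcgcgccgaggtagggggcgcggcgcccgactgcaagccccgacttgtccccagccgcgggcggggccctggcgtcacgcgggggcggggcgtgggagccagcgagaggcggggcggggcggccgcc
Bbc3, start 2, chr7:16310011-16310260, plus strand: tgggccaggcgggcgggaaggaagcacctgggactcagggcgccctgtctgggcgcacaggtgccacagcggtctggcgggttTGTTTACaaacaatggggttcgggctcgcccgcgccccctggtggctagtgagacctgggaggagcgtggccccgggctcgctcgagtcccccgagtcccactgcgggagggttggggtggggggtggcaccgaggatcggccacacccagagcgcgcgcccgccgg
Bid, chr6:120916825-120917074, minus strand: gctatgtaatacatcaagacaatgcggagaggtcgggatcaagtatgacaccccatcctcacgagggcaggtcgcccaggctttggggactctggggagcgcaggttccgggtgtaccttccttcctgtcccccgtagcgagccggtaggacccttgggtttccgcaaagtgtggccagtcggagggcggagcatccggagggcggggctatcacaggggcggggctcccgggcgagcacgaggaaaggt
In the window of Bbc3 start 1, 2 overlapping matches to the NF-kappaB site ran from -137 to -127, counted from the start, and 3.90% of 32851 mouse promoter windows of the same length hold this site. At start 2 the capitals, from -167 to -161, are GTAAACA read on the other strand, which 3.17% of windows hold. The window of Bid held none of the 6 patterns. A match describes letters and says nothing of a factor being bound there.

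Bcl2l11, on chromosome 2 (chr2:128126038-128162547, plus strand), encodes BIM, the BH3-only protein known for rising when growth factors are withdrawn. Its level was 15.0, 10.8 and 14.2 CPM in labelled Ctrl libraries and 9.17, 11.1 and 10.8 CPM in labelled cKO libraries. Here the groups overlapped, since Ctrl 2 lay below cKO 2. The log2 fold change of -0.37 (SE 0.15, 95% interval -0.71 to -0.02) did not pass (adjusted p = 0.113, edgeR). With total counts as the scale it was -0.62 (adjusted p = 0.0322, edgeR), over a range of 0.0322 to 0.308 in all alternatives. Upstream of 1 of its starts, from -227 to -221, the same FOXO letters occur as at Bbc3 start 2.

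Pmaip1 encodes NOXA, a small BH3-only protein that binds mainly MCL1 and is another textbook p53 target. It was close to the limit of detection, with 11, 4 and 9 counts in labelled Ctrl libraries and 2, 3 and 1 in labelled cKO libraries. The counts do not overlap, but they fell under the filter for testing. Pooled and scaled, the ratio of labelled Ctrl over labelled cKO was 4.03, with a 95% interval of 1.60 to 12.0 that covers counting error only and not the spread between mice. Fitted without the filter, its adjusted p was 0.0906 (edgeR).

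The effectors, which make the pore, moved in opposite directions. Bax (chr7:45461697-45466898, minus strand) had 637, 646 and 620 counts in labelled Ctrl libraries and 428, 478 and 573 in labelled cKO libraries, or 16.3, 15.6 and 17.0 CPM against 12.1, 12.4 and 13.0 CPM. All 3 libraries labelled Ctrl were above all 3 labelled cKO. Its log2 fold change was -0.38 (SE 0.08, 95% interval -0.57 to -0.19; adjusted p = 0.0184, edgeR), and the call was lost without Ctrl 1 (0.0663) or cKO 1 (0.0575), over a range of adjusted p-values of 0.00581 to 0.0663 in all alternatives. Bax shares 192 exon bases with Gm45808 on the same strand. BAX rests in the cytosol and moves to mitochondria when activated, whereas BAK is held in the outer membrane throughout.

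Bak1 (chr17:27019810-27029009, minus strand) was measured at 20.4, 21.4 and 23.7 CPM in labelled Ctrl libraries and at 31.8, 27.8 and 29.4 CPM in labelled cKO libraries. The order was the reverse of that for Bax, again with no overlap. Its log2 fold change was 0.44 (SE 0.09, 95% interval 0.23 to 0.66; adjusted p = 0.0155, edgeR). The call was lost without Ctrl 1 (adjusted p = 0.0614), Ctrl 2 (0.0558), cKO 1 (0.0530) or cKO 3 (0.0532), and with total counts as the scale (log2 fold change 0.19, adjusted p = 0.124), over a range of 0.00133 to 0.124 in all alternatives (edgeR or DESeq2). Bak1 shares 614 of its 2407 exon bases with Ggnbp1 on the opposite strand, whose counts were 909 to 1211 in labelled Ctrl and 937 to 1161 in labelled cKO. Set against each other within a library, a comparison chosen after the values were seen and not tested, Bax counts were 0.796, 0.730 and 0.716 of those of Bak1 in labelled Ctrl and 0.379, 0.447 and 0.443 in labelled cKO.

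The window upstream of Bax is shown beside that of Bbc3 because both genes are known p53 targets and both were higher in labelled Ctrl libraries.
Bax, chr7:45466899-45467148, minus strand: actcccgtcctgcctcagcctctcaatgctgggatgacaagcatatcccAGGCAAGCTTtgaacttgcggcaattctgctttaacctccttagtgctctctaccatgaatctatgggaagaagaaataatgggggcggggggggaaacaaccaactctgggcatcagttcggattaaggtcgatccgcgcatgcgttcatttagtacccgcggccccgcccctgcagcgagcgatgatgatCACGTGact
The capitals mark a p53 half-site from -201 to -192, which 7.13% of all windows hold, and ACGTG read on each strand of CACGTG, from -9 to -4, a pattern in 16.6% of windows. None of the 3 windows of Bbc3 held the p53 half-site. Bases outside the windows and looser forms of the site were not searched, and a role of p53 was not tested. No match to the 6 patterns lay in the window of Bak1.

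Survival genes did not move as 1 group. Bcl2 (chr1:106538178-106714274, minus strand), the founding member, whose protein holds BAX and BH3-only proteins, was higher in the libraries labelled cKO, with 8.16, 7.95 and 8.77 CPM against 6.49, 5.79 and 6.21 CPM in those labelled Ctrl. The groups did not overlap, and the distance between them was small beside that of Bbc3. It shares 558 exon bases with the antisense gene D630008O14Rik. Its log2 fold change was 0.43 (SE 0.10, 95% interval 0.18 to 0.67; adjusted p = 0.0263, edgeR). The call was lost without Ctrl 1 (adjusted p = 0.0641), Ctrl 2 (0.0863), cKO 1 (0.0746) or cKO 3 (0.110), and with total counts as the scale (log2 fold change 0.17, adjusted p = 0.289), over a range of 0.0114 to 0.289 in all alternatives (edgeR or DESeq2).

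Bcl2l1 (chr2:152780668-152831728, minus strand) encodes BCL-XL and the shorter BCL-XS, which the counts per gene do not separate. Its level was 61.7, 38.2 and 35.2 CPM in labelled Ctrl libraries and 33.1, 28.1 and 24.2 CPM in labelled cKO libraries. The groups did not overlap, although Ctrl 3 and cKO 1 lay close together and Ctrl 1 stood above the other libraries. The log2 fold change of -0.66 (SE 0.22, 95% interval -1.19 to -0.13) did not pass (adjusted p = 0.0714, edgeR). It passed without Ctrl 3 (-0.81, adjusted p = 0.0458), with total counts as the scale (-0.92, 0.0226) and in DESeq2 (-0.65, 0.0223), and without Ctrl 1 it was -0.37, over a range of adjusted p-values of 0.0223 to 0.191 in all alternatives.

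Mcl1 (chr3:95658788-95663176, plus strand) encodes a survival protein known for its rapid turnover. It was measured at 362, 330.3 and 351 CPM in labelled Ctrl libraries and 263, 211 and 301 CPM in labelled cKO libraries. The libraries labelled Ctrl were tight and above the other 3, which were spread more widely. The log2 fold change was -0.43 (SE 0.13, 95% interval -0.75 to -0.11) and did not pass (adjusted p = 0.0563, edgeR). It passed without cKO 3 (-0.57, adjusted p = 0.0435), with total counts as the scale (-0.69, 0.00683) and in DESeq2 (-0.42, 0.0212), over a range of 0.00683 to 0.152 in all alternatives.

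**Figure D2:**
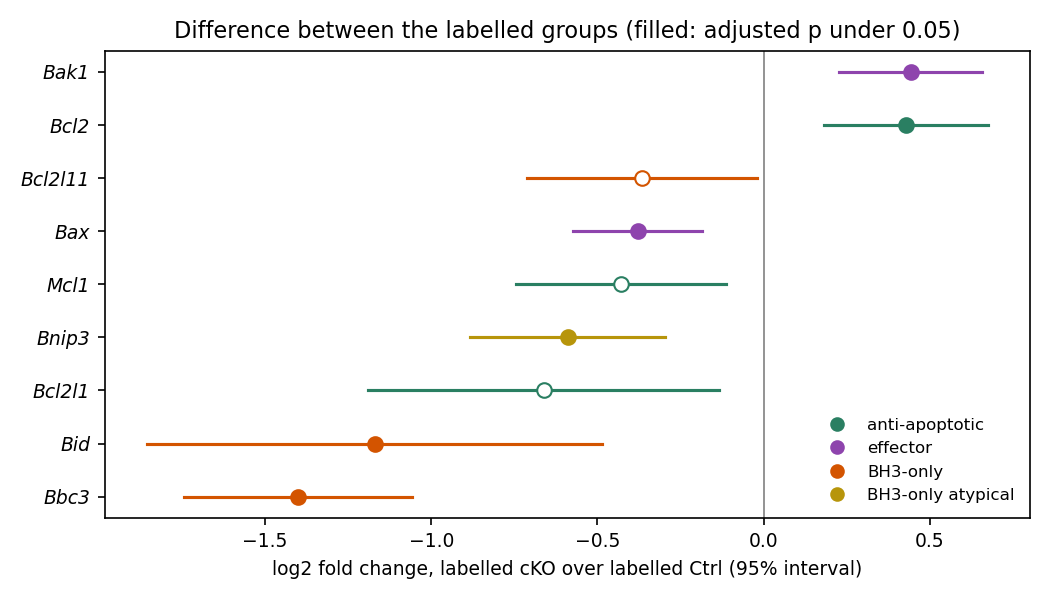
Points are log2 fold changes (labelled cKO over labelled Ctrl, horizontal axis) of the 9 genes tested, with 95% intervals from the edgeR fit, coloured by role and filled where the adjusted p was under 0.05. Bbc3 (-1.40) and Bid (-1.17) lie farthest to the left, and Bcl2 (0.43) and Bak1 (0.44) are the only genes to the right of 0.

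Ratios of an effector to a survival gene within a library, which need no scaling between libraries, differed by pair. Bax over Bcl2 was 2.51, 2.69 and 2.73 in labelled Ctrl libraries and 1.48, 1.56 and 1.48 in labelled cKO libraries, so that the libraries labelled Ctrl were all higher. Its mean log2 difference, labelled cKO minus labelled Ctrl, was -0.81 (exact two-sided permutation p = 0.1, the smallest possible, and 0.2 after adjustment over the 6 ratios). For Bak1 over Bcl2l1 the ratio was 0.331, 0.558 and 0.673 in labelled Ctrl and 0.962, 0.987 and 1.21 in labelled cKO, a difference of 1.07 the other way (exact permutation p = 0.1, adjusted 0.2). Ctrl 1 stood lowest here, and without it the difference was 0.77. Bak1 over Mcl1 was likewise higher in every library labelled cKO, at 0.121, 0.132 and 0.0977 against 0.0564, 0.0647 and 0.0675, a difference of 0.89 (exact permutation p = 0.1, adjusted 0.2). The other 3 ratios overlapped between the groups, with log2 differences of 0.01 for Bak1 over Bcl2, 0.25 for Bax over Bcl2l1 and 0.06 for Bax over Mcl1 (exact permutation p = 0.9, 0.6 and 0.9). Each of these 3 changed sign when 1 library was left out, with values of -0.07 for Bak1 over Bcl2 without Ctrl 1, -0.05 for the same pair without cKO 1, -0.003 for Bax over Bcl2l1 without Ctrl 1 and -0.07 for Bax over Mcl1 without cKO 2. With 3 mice a group, the exact permutation test used here cannot give a p under 0.1 for any ratio.

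**Figure D3:**
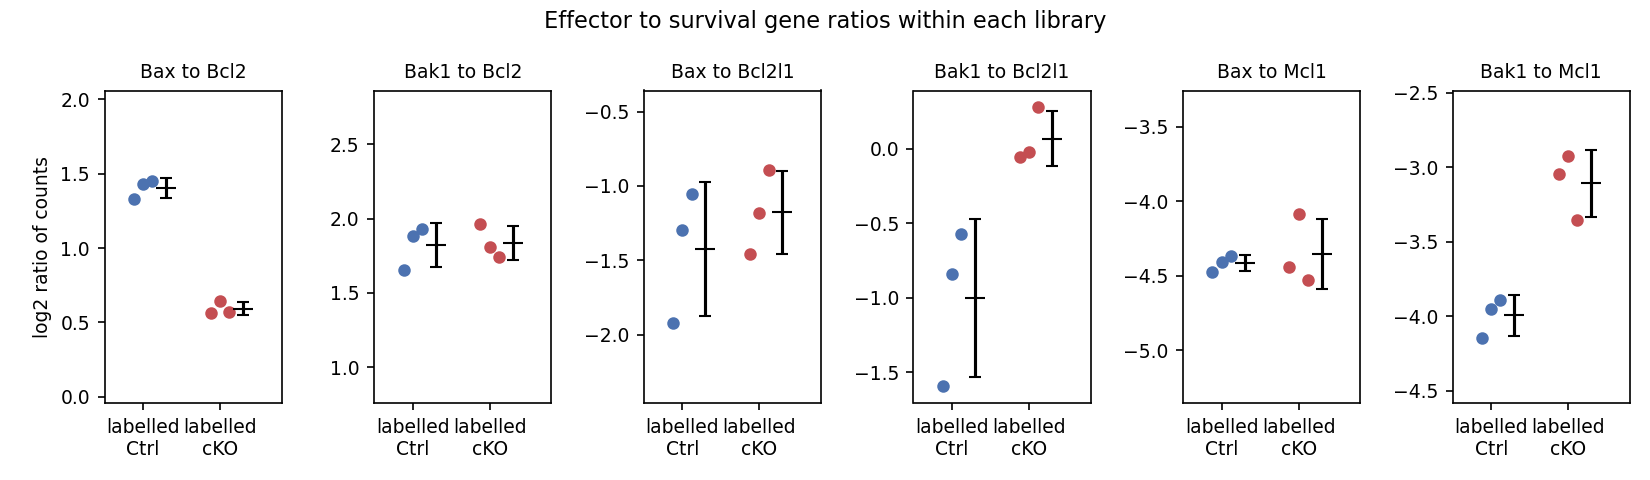
Panels show the log2 ratio of effector to survival gene counts in each library, with the mean ± SD of 3 mice beside the points. The axes differ in position but span the same number of log2 units. Bax to Bcl2 is lower in the libraries labelled cKO (difference -0.81), Bak1 to Bcl2l1 (1.07) and Bak1 to Mcl1 (0.89) are higher there, and the other 3 pairs overlap.

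Bnip3 (chr7:138890836-138909519, minus strand) encodes an atypical BH3-only protein of the outer mitochondrial membrane that recruits the autophagosome and is known as a target of hypoxia and of FoxO3 in wasting muscle. Its level was 419, 329.6 and 323 CPM in labelled Ctrl libraries against 249, 246 and 218 CPM in labelled cKO libraries. The groups did not overlap, and Ctrl 1 was highest. The level was 1.50-fold higher in labelled Ctrl (357 ± 54.0 against 237 ± 17.2 CPM, SD, n = 3), with a log2 fold change of -0.59 (SE 0.13, 95% interval -0.88 to -0.30; adjusted p = 0.0169, edgeR). The call was lost without cKO 3 (-0.55, adjusted p = 0.0675), over a range of 0.000276 to 0.0675 in all alternatives. Stretches of 559 to 858 bases at 95.2% to 98.9% identity occur in transcripts of 4 other annotated genes, which were not analysed here, and 504 exon bases of Bnip3 are shared with the antisense gene Gm45507, so reads of these stretches cannot be assigned with certainty.

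The window upstream of Bnip3 is shown because of the hypoxia letters it holds. Its last bases lie inside the GENCODE span of the gene.
Bnip3, chr7:138909507-138909756, minus strand: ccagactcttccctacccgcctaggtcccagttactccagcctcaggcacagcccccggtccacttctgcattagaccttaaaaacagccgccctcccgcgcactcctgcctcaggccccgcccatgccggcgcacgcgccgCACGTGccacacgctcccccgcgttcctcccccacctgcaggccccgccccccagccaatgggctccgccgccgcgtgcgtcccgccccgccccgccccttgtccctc
ACGTG, in 16.6% of all windows, is read here on each strand of CACGTG from -108 to -103. CACGTG also lay upstream of the third annotated start of Bbc3, from -64 to -59. Of the 14 windows of the 9 family genes searched, 7 held at least 1 of the 6 patterns, against 28.3% of all windows. The median GC content of all windows is lower (52.4% against 68.2%). Pmaip1 was left out of the search, and the windows of Bbc3 starts 2 and 3 overlap. The second start of Bcl2l1 accounts for 1 of the 7, with an NF-kappaB site from -242 to -233 and TTTCGCGC, which 0.256% of windows hold, from -145 to -138. No match was found for Bcl2, Mcl1, Bak1 and Bid.

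Compared per kilobase of exon, the mean levels in labelled Ctrl spread widely. Bnip3 (158 CPM per kilobase) and Mcl1 (102) led in labelled Ctrl and also in labelled cKO, at 105 and 75.5. Bax (10.3), Bcl2l1 (9.82) and Bak1 (9.07) formed the next tier in labelled Ctrl, where Bcl2l1 ranged from 7.67 to 13.5 over the mice and so did not separate from the other 2. In labelled cKO, Bak1 (12.3) was above Bax (7.93) and Bcl2l1 (6.21) in every library. Below them in labelled Ctrl came Bbc3 (2.51), Bcl2l11 (1.66), Bcl2 (0.673), Bid (0.383) and Pmaip1 (0.0761), and these neighbours did not overlap. In labelled cKO, Bbc3 (0.951) lay beside Bcl2 (0.905), with overlapping ranges of 0.867 to 1.01 and 0.868 to 0.958. By coding length instead of exon length, Bnip3, Mcl1, Bid and Pmaip1 kept their ranks in both groups, while places between them shifted.

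**Figure D4:**
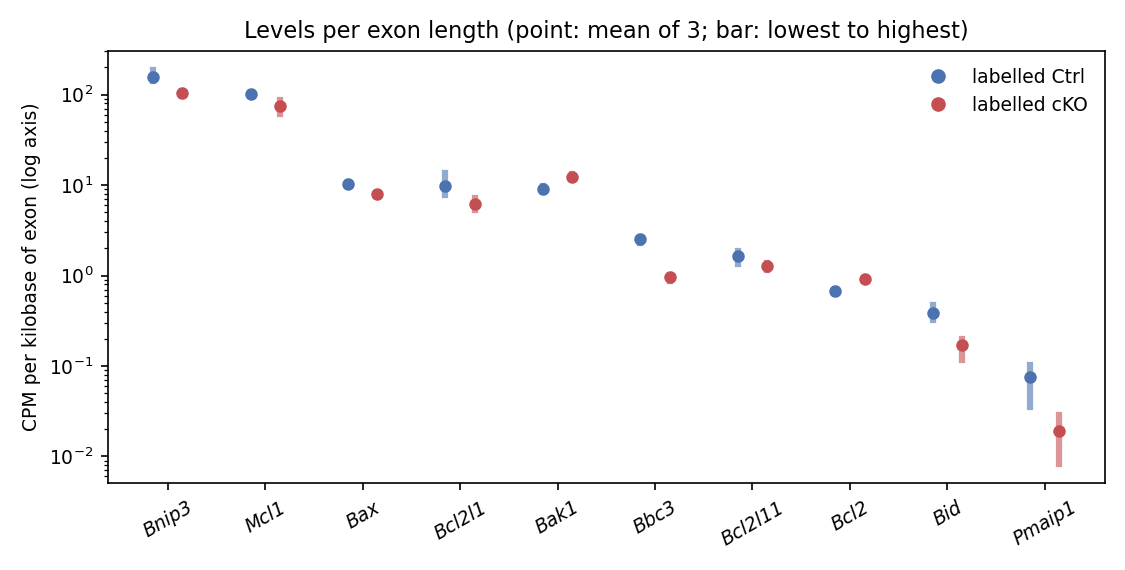
The vertical log axis gives the level in CPM per kilobase of exon, with points for the mean of 3 libraries and bars from the lowest to the highest. Genes run from Bnip3 (158 in labelled Ctrl) to Pmaip1 (0.0761), and the points of Bcl2 and Bak1 are the ones that lie higher for labelled cKO.

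Libraries differed in markers of fibre type and of other cells, whose counts below stand beside 24.4% of all genes that passed, 38.8% at an unadjusted p under 0.05 and 28.0% called in DESeq2. The summed level of 8 slow-fibre genes was 8481 to 14598 CPM in labelled Ctrl libraries and 446 to 3873 CPM in labelled cKO libraries, and 3 of the 8 passed, higher in labelled Ctrl. All 8 had a negative log2 fold change (median -2.46), with 7 at an unadjusted p under 0.05 and 7 called in DESeq2. Immune markers summed to 125 to 145 CPM in labelled Ctrl and 55.6 to 82.8 CPM in labelled cKO, and 4 of 6 tested passed, higher in labelled Ctrl, with 6 at an unadjusted p under 0.05 and 6 called in DESeq2. Among fibro-adipogenic markers, 3 of 6 passed, higher in labelled Ctrl, with sums of 1034 to 1236 and 675 to 1221 CPM. The others, Pdgfra (log2 fold change -0.18), Dcn (0.20) and Col1a1 (0.08), did not pass. At an unadjusted p under 0.05 there were 3 in this list, and DESeq2 called 3. Of the 6 muscle fibre markers 4 passed in edgeR, higher in labelled cKO, namely Ckm and the fast-fibre genes Myh4, Actn3 and Tnnt3. In the same list 5 had an unadjusted p under 0.05, and DESeq2 called 5. Mb (log2 fold change -0.68, adjusted p = 0.0916) and Acta1 (0.19, 0.474) did not pass, and Myh4, at 25521 against 70116 CPM on average, made up most of the rise in their sum. Endothelial (424 to 451 against 393 to 401 CPM), satellite cell (73.4 to 114 against 49.0 to 75.4 CPM) and adipocyte markers (197 to 247 against 199.8 to 249 CPM) had no gene that passed in edgeR, with 0, 2 and 0 at an unadjusted p under 0.05 and 0, 2 and 0 called in DESeq2. The part of fibre type, immune or fibro-adipogenic cells in the values of the BCL2 family was not tested.

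Genes around the family were read from 5 further lists, in which 15 of 60 genes tested passed, or 25.0%, close to the 24.4% of all genes. The 16 other BCL2 family genes, among them Bad, Bik and the Bnip3 relative Bnip3l, gave 10 tested and 0 passed in edgeR, with a median log2 fold change of -0.03. At an unadjusted p under 0.05 there were 3, namely Bad (-0.28), Bik (0.63) and Bnip3l (0.38), and DESeq2 called 1, Bnip3l, against 38.8% and 28.0% of all genes. Without Ctrl 3, Bnip3l also passed in edgeR (adjusted p = 0.0102). With total counts as the scale, Bad (adjusted p = 0.0169), Bcl2l13 (0.0267) and Bok (0.0483) passed, higher in labelled Ctrl (edgeR). Whether these genes differ as a list from the 10 above was not tested.

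Downstream of the pore, 1 of the 14 genes of the mitochondrial death pathway passed, where 24.4% of all genes passed. That gene was higher in labelled Ctrl, with a fold change over 2. At an unadjusted p under 0.05 there were 5, and DESeq2 called 1, against 38.8% and 28.0% of all genes. The median log2 fold change of the list was -0.21, and 13 genes did not pass in edgeR. Among the 13 were Cycs, which encodes cytochrome c, and Apaf1 and Casp9, whose proteins form the apoptosome with it. When 1 library was left out, Casp9 passed without cKO 2 (adjusted p = 0.0495, edgeR), Diablo without Ctrl 3 (0.0479) and Birc5 without Ctrl 2 (0.0466). With total counts as the scale these 3 passed (0.0215, 0.0160 and 0.0298), as did Apaf1 (0.0265), Htra2 (0.0112) and Birc3 (0.0249), all higher in labelled Ctrl (edgeR).

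Among transcription factors known to act on BCL2 genes, 3 of 9 tested passed, where 24.4% of all genes passed. All 3 were higher in labelled Ctrl, and the list median was -0.14. Trp63, the p53 relative p63, was at 32.8, 27.1 and 32.5 CPM against 10.7, 11.7 and 12.0 CPM (log2 fold change -1.42, SE 0.10; adjusted p = 0.000731, edgeR), and Ddit3, the stress factor CHOP, changed by -0.61 (SE 0.11; adjusted p = 0.0118). Both passed under all 13 alternatives. E2f1 (-0.80, SE 0.23; adjusted p = 0.0439) lost its call without Ctrl 1, Ctrl 2, cKO 1, cKO 2 or cKO 3, with adjusted p-values of 0.0824 to 0.137 (edgeR). That call was also lost in DESeq2, with no filter on low counts and with the mouse number as a block. For Trp53 itself, at 16.1 to 19.3 CPM in labelled Ctrl and 16.0 to 19.1 CPM in labelled cKO, the log2 fold change was -0.02 (SE 0.11, 95% interval -0.28 to 0.24; adjusted p = 0.920, edgeR). Hif1a passed without cKO 2 (adjusted p = 0.0445, edgeR), with total counts as the scale (0.0164) and in DESeq2. Foxo3 was at -0.13 (SE 0.21, 95% interval -0.63 to 0.37; adjusted p = 0.691, edgeR). These are mRNA levels and do not report the activity of either protein.

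Partners of BCL2 proteins and factors of their turnover gave 6 of 15 that passed, where 24.4% of all genes passed. Of these 6, 4 were higher in labelled cKO and 2 in labelled Ctrl, and the list median was 0.15. Itpr1, the calcium channel of the endoplasmic reticulum that BCL2 binds, was higher in labelled cKO (log2 fold change 0.85, SE 0.11; adjusted p = 0.00431, edgeR), as was Vdac3 (0.62, SE 0.08; adjusted p = 0.00458), a channel of the outer mitochondrial membrane. Bag3, a co-chaperone that binds BCL2 and guides damaged muscle proteins to autophagy, was higher in labelled Ctrl (-0.78, SE 0.10; adjusted p = 0.00394). These 3 passed under all 13 alternatives. The further channel genes Vdac1 (0.53, adjusted p = 0.0103) and Vdac2 (0.34, adjusted p = 0.0273), the latter a known anchor of BAK, were higher in labelled cKO, and Bcap31 (-0.27, adjusted p = 0.0428) in labelled Ctrl. Vdac1 lost its call without cKO 3 (0.0533), and Vdac2 and Bcap31 without any 1 library other than cKO 2, at 0.0514 to 0.116 and 0.0807 to 0.125 (edgeR). With total counts as the scale, Vdac1 (0.28, adjusted p = 0.0574) and Vdac2 (0.08, 0.457) did not pass, while Bag1 (-0.26, 0.0287) did. Bcap31 also lost its call with no filter on low counts. With the mouse number as a block, Vdac1, Vdac2 and Bcap31 all lost their calls.

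Beside Bnip3, the mitophagy and autophagosome list gave 5 of 12 that passed, where 24.4% of all genes passed. Of these 5, 1 was higher in labelled Ctrl and 4 in labelled cKO, and the list median was 0.13. Gabarapl1, an autophagosome protein that binds receptors such as BNIP3, was measured at 252, 165 and 207 CPM in labelled Ctrl libraries and 50.5, 71.5 and 48.2 CPM in labelled cKO libraries (log2 fold change -1.87, SE 0.21; adjusted p = 0.00272, edgeR; passed under all 13 alternatives). Its relative Gabarapl2 was higher in labelled cKO by 0.26 (adjusted p = 0.0268), as were the kinase gene Ulk1 by 0.46 (0.0106), Tbc1d15 by 0.44 (0.0278) and the receptor gene Fundc1 by 0.35 (0.0419, edgeR). Ulk1 lost its call without cKO 3 (0.0532), and Gabarapl2 and Fundc1 lost theirs with the mouse number as a block. The calls of Gabarapl2 and Tbc1d15 were lost without Ctrl 1, Ctrl 2, cKO 1 or cKO 3 (0.0889 to 0.0984 and 0.0625 to 0.0993), and that of Fundc1 without any 1 library other than Ctrl 3 (0.0682 to 0.118). Map1lc3a passed without Ctrl 3 (0.0455) and with total counts as the scale (0.0317), Park2 with total counts (0.0486), and Map1lc3b in DESeq2. With total counts as the scale none of the 4 genes higher in labelled cKO passed, with log2 fold changes of 0.000483 to 0.20.

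**Figure D5:**
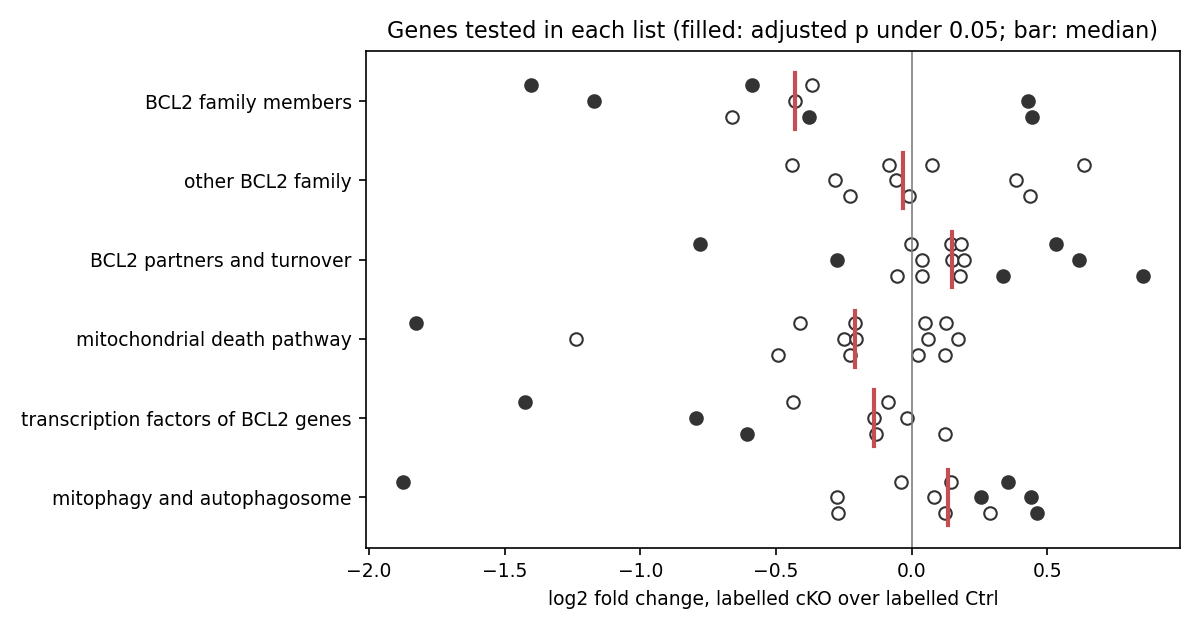
Each point is 1 tested gene, placed by its log2 fold change (labelled cKO over labelled Ctrl) in the row of its list, filled where the adjusted p was under 0.05, and red bars mark the medians. The family genes have a median of -0.43, the other lists lie between -0.21 and 0.15, and Gabarapl1 (-1.87) lies farthest to the left.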

How the data were processed

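GP muscle libraries (KAPA mRNA kit) of 3 mice labelled Ctrl and 3 labelled cKO were analysed. The authors deposited raw counts per gene, 1 table per library. The submitters' processing notes name FastQC 0.11.8, Trimmomatic 0.39, HISAT2 2.1.0, featureCounts 1.6.2 and mm10. Annotation and strand setting are not given in the sources used here. Between mice of a group, chi-square per degree of freedom was 29.5 to 101, so no library repeats another.

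Counts were fitted in R 4.3.3 with edgeR 4.0.16 (TMM, filterByExpr, quasi-likelihood test, no block), with Benjamini-Hochberg adjustment over 14180 genes. DESeq was the tool of the study, so its successor DESeq2 1.42.0 served as an alternative. The step was also run on simulated counts, and the outcome is not given here. CPM used TMM factors, and levels per kilobase used GENCODE M21 exons. For single values an exact permutation test, two-sided, was used. Other alternatives were scaling by total counts or DESeq2 size factors, a robust fit, a minimum of 10 counts per library or none, the mouse number as a block and each library left out. The 10 genes and all lists were chosen with earlier results of these data known. Named are the 10 genes, Net39, Trp53, Foxo3 and, per further list, up to 6 genes that passed, by smallest p. Further genes that did not pass, and overlapping genes, were named after their values were seen. Some genes that these rules select are left unreported here. Mouse numbers did not pair libraries. Promoter windows came from RefSeq.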

Additional observations from a re-analysis of the deposited data

How the results depend on the processing

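None of the 9 tested genes reversed under any of 13 alternatives. Family genes that passed with the higher level in labelled Ctrl numbered 4 in the main analysis, 7 with total counts as the scale, 2 with a fold change over 2 and 2 to 4 when 1 library was left out. Those higher in labelled cKO numbered 2, and 0 with total counts, 0 with a fold change over 2, 0 with the replicate block and 0 to 2 when 1 library was left out. Leaving out Ctrl 1 or cKO 1 gave the 2, and Ctrl 1, Ctrl 2, cKO 1 or cKO 3 the 0. In the 5 further lists, 7 genes were higher in labelled Ctrl (20 with total counts, 3 with a fold change over 2, 5 to 8 when 1 library was left out) and 8 in labelled cKO (2 with total counts, 0 with a fold change over 2, 4 with the block, 2 to 8 when 1 library was left out, lowest without cKO 3). Total counts moved the all-gene median (log2 fold change) from -0.02 to -0.27 and the split of calls from 1668 higher in labelled Ctrl and 1786 in labelled cKO to 4074 and 673. Relative to that median, Bcl2 was at 0.44 under both scales and Bbc3 at -1.39 and -1.38. Same-numbered mice did not deviate together (correlations 0.08, -0.21 and 0.00), so the block rests on a number only, and with it 972 and 927 of all genes passed. Under the block, Net39 was at 4.22 (adjusted p = 0.00494), Bcl2, Bak1, Bax and Bid missed the threshold (adjusted p = 0.0716, 0.0511, 0.0581 and 0.0502) and Bcl2l1 passed (0.0325, edgeR). All genes called fell by over 1.5 times also without Ctrl 1 (809 and 766), Ctrl 2 (947 and 873), cKO 1 (893 and 896) or cKO 3 (788 and 772). Left out 1 at a time, libraries gave log2 ratio differences of -0.85 to -0.78 for Bax over Bcl2, -0.0693 to 0.0689 for Bak1 over Bcl2 (-0.0693 without Ctrl 1 and -0.0487 without cKO 1), -0.00297 to 0.43 for Bax over Bcl2l1, 0.77 to 1.29 for Bak1 over Bcl2l1, -0.0692 to 0.15 for Bax over Mcl1 and 0.79 to 1.01 for Bak1 over Mcl1. The causes were not tested. Depth limits Pmaip1, with at most 11 counts per library.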
